A study of Cucumis melo with 27 samples.

Results

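The comparison described here sets TTDV melon fruit (Cucumis melo) at 30-35 days (d) after flowering against TTDV fruit at 20-25 d, in 6 RNA-seq libraries out of 27. The whole series covers field-grown plants of 2 cultivars, which the labels name F39 and TTDV, with fruit at 4 stages in each and 14-day-old F39 leaves, in 9 groups of 3 libraries. The labels give no other treatment, allele or agent for any group. Nothing in them tells if replicate libraries stem from different plants. The p-values therefore measure the spread between libraries, and that spread may be technical. F39 fruit at 30-35 d and at 40 d, each against F39 fruit at 20-25 d, and leaf serve only as comparison.

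The members were chosen by library number. The columns numbered 13, 14 and 15 were taken as replicates 1, 2 and 3 of TTDV 30-35 d, because the titles of that group carry these numbers. The columns numbered 10, 11 and 12 were taken as TTDV 20-25 d for the same reason. This assignment by number is assumed: GEO attaches the files 13 to 15 to samples titled TTDV 20-25 d and the files 10 to 12 to samples titled F39 45 d. The partition of the files into groups of 3 is the same either way, so every value below for the 6 libraries holds under the attachment too, where it would be TTDV fruit at 20-25 d against F39 fruit at 45 d.

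Melon fruit first grows by cell division and expansion and then ripens. In ripening fruit of climacteric types a burst of the hormone ethylene accompanies softening of the cell walls, loss of chlorophyll, build-up of pigments and aroma, and storage of sucrose in the flesh. The files give gene IDs without names, and none of the 25200 IDs was found in the reference gene table (0 matches), so genes are given by ID, and their functions and sequences are not used here. Levels are given as CPM, the gene's count scaled by the library total, which is not corrected for gene length, so levels of different genes are not compared.

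The 6 libraries held 8854648 to 15292038 counts at 30-35 d and 10338794 to 13964844 counts at 20-25 d. Of the 25200 genes, 10344 reached 1 CPM in all 6 libraries and 7136 had no count in any of them. By median correlation the 6 libraries resembled each other between the stages (0.864) somewhat more than within 30-35 d (0.844), and less than within 20-25 d (0.891). Spearman correlations of log2(CPM + 1) over 10472 genes, given as a description, ran from 0.819 to 0.914 over the 3 pairs within 30-35 d, from 0.889 to 0.914 over the 3 pairs within 20-25 d, and from 0.769 to 0.900 over the 9 pairs between the stages. The biological coefficient of variation, the spread of a gene between libraries beyond counting error, was 0.704 at 30-35 d and 0.616 at 20-25 d.

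The cultivar labels were checked in 2 ways. First, 34 genes were taken that were at least 4-fold higher in all 3 libraries of TTDV 45 d than in the 12 F39 libraries whose title and file carry the same number, which are all F39 groups but 45 d. Of these 34 genes, 12, 10 and 12 lay above all 12 F39 libraries in replicates 1, 2 and 3 of 30-35 d, and 7, 12 and 10 in those of 20-25 d. In the files numbered 59 to 61, which are F39 45 d by number and TTDV 40 d as attached, 22, 22 and 23 did, more than in any of the 6 libraries. A reverse set held 30 genes at least 4-fold higher in those 12 F39 libraries than in TTDV 45 d. Of these, 7, 7 and 7 lay under all 12 F39 libraries at 30-35 d, 3, 7 and 7 at 20-25 d, and 19, 19 and 22 in the files numbered 59 to 61. The files numbered 16 to 18, TTDV fruit under either matching, had 24, 14 and 28 of the 34 genes and 23, 8 and 29 of the 30. TTDV 45 d is the only TTDV stage whose numbers agree, so stage and cultivar cannot be told apart in either set of genes.

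The second check, whose genes had to hold at every stage, gave another order. A gene counted as separating the cultivars when every library of one cultivar had 1 CPM or more and lay at least 4-fold above every library of the other. With files matched by number, 3 genes separated the 12 TTDV libraries from the 15 F39 libraries, all 3 higher in TTDV. With files as attached in GEO, 0 genes did. MELO3C019418.2, picked with its values in view, had 5.76 to 8.47 CPM in the 3 libraries of 30-35 d, 6.35 to 8.31 CPM in those of 20-25 d and 4.06 to 10.1 CPM in TTDV fruit at 45 d, against at most 0.118 CPM in the same 12 F39 libraries and no count in the files numbered 59 to 61. These counts were not used to assign any library.

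One library stood apart in the second check. Replicate 1 of 20-25 d, numbered 10, held counts of genes otherwise seen in F39 as well as of genes otherwise seen in TTDV. MELO3C029124.2 had 8.02 CPM in that library, no count in the other 2 libraries of 20-25 d and at most 0.0654 CPM at 30-35 d, against 3.61 to 15.8 CPM in the 12 F39 libraries. MELO3C035133.2 had 24.6 CPM in it, no count in the other 2 libraries of 20-25 d and at most 0.196 CPM at 30-35 d, against 3.85 to 89.2 CPM in those F39 libraries. Both genes were likewise picked with their values in view. Without that library 5 genes separated the cultivars by number, 3 higher in TTDV and 2 higher in F39, and still 0 as attached. The 2 were MELO3C029124.2 and MELO3C035133.2 themselves, so their addition was built into their choice. The composition of that library was not tested further, and the main counts below are also given without it.

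Between 20-25 and 30-35 d, 43 genes rose in TTDV fruit and none fell past the threshold. The test was edgeR's quasi-likelihood F-test, Benjamini-Hochberg adjusted, with a threshold of 0.05, and the 43 genes were 0.284% of 15130 tested. Their log2 fold changes, 30-35 d over 20-25 d, ran from 1.46 to 9.56 with a median of 2.55, beside a median of 0.018 for all genes tested. With the 4 genes that had no count at 20-25 d set at their lower bounds, the median of the 43 was also 2.55. Among genes with a count at 20-25 d the highest value was 7.70, in MELO3C007638.2. That value rested on replicate 3 of 30-35 d and was 0.38 without it. The next value was 4.09, in MELO3C011553.2. The estimated rise was more than 2-fold in all 43, more than 4-fold in 27 and more than 8-fold in 14, each count including MELO3C007638.2. Together they took 0.92%, 1.48% and 1.59% of a library's counts at 30-35 d, in ascending order. At 20-25 d they took 0.182%, 0.241% and 0.285%, so that the summed shares did not overlap. The highest share at 30-35 d, that of replicate 3, held 6657 CPM of MELO3C007638.2. That gene had 10.06 and 10.72 CPM in replicates 1 and 2. Since the genes were called on these libraries, those shares are a description. In bulk libraries a change in the mix of cells and a change of RNA per cell cannot be told apart.

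In the plot of change against level the called genes lie above 0 on the change axis at low as well as high levels.

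**Figure D1:**
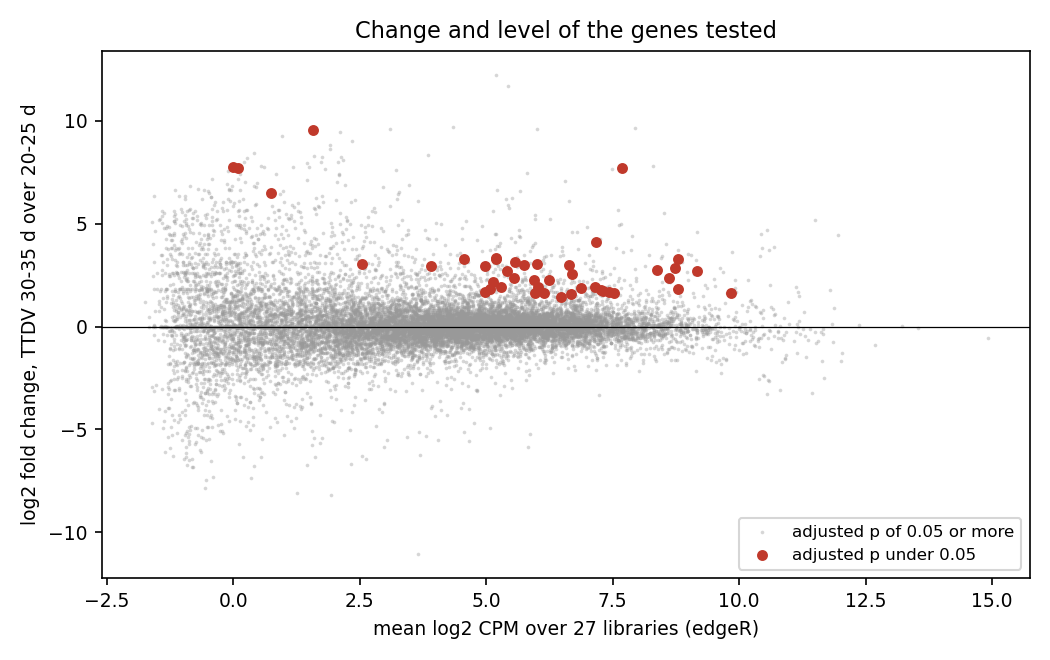
Each point is 1 of the 15130 genes tested, with its mean log2 CPM over the 27 libraries on the horizontal axis and its log2 fold change, TTDV 30-35 d over 20-25 d, on the vertical axis. The 43 genes with an adjusted p under 0.05 (red) all lie above 0, between 1.46 and 9.56.

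The number of calls rested on single libraries and on the groups in the fit. The direction of the 43 genes was the same in every fit that held them, but this was built into their choice. In 42 of the 43 every library of 30-35 d lay above every library of 20-25 d, so leaving out 1 library could hardly turn it. Without replicate 1 of 20-25 d, the library that stood apart, edgeR called 1 gene, MELO3C017783.2, although all 43 remained higher at 30-35 d. Leaving out replicate 2 or 3 of 20-25 d gave 36 and 7 calls, of which 4 and 2 were lower at 30-35 d. Leaving out replicate 1, 2 or 3 of 30-35 d gave 9, 56 and 141 calls, of which 0, 9 and 22 were lower. The stricter filter on low counts gave 4 lower calls and the fit of the fruit libraries alone gave 1, so the absence of lower calls depended on these settings too. With only the 2 groups in the fit edgeR called 0 genes, beside 1187 genes at an unadjusted p under 0.05. DESeq2's Wald test called 504 genes, 373 higher and 131 lower, among them 42 of the 43. It called 174 genes without replicate 1 of 20-25 d, 153 higher and 21 lower, again with 42 of the 43.

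The firmest change was that of MELO3C017783.2, which passed the threshold in all 6 fits that left out 1 library. Its level was 1319, 1042 and 719.5 CPM at 30-35 d (replicates 1, 2 and 3, the order kept below), against 89.51, 107 and 125.9 CPM at 20-25 d. Every library of the later stage lay far above every library of the earlier one. Its log2 fold change was 3.30 (SE 0.39, adjusted p = 0.000442 by edgeR), and 2.91 to 3.59 over the 6 fits without 1 library.

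Other genes that took many counts rose beside it, with replicates that were closer in some genes than in others. MELO3C018475.2 had 1079, 1180 and 935.1 CPM at 30-35 d, against 83.28, 272.1 and 144.1 CPM at 20-25 d, a log2 change of 2.72 with SE 0.48 (edgeR adjusted p = 0.0151). MELO3C016273.2 had 2219, 1497 and 1247 CPM at 30-35 d, against 527.2, 600.7 and 498.2 CPM at 20-25 d, a log2 change of 1.64 with SE 0.34 (edgeR adjusted p = 0.0393). In both genes every library of 30-35 d lay above every library of 20-25 d. MELO3C021242.2 had 1015, 459.7 and 536 CPM at 30-35 d, against 125, 245.9 and 215 CPM at 20-25 d, a log2 change of 1.84 with SE 0.36 (edgeR adjusted p = 0.031). Here replicate 1 of 30-35 d stood well above the other libraries of its stage. The number of fits without 1 library that kept the call was 3 of 6 for MELO3C018475.2, 1 of 6 for MELO3C016273.2 and 2 of 6 for MELO3C021242.2. MELO3C016273.2 and MELO3C021242.2 each stood at a log2 value of 1.20 when replicate 1 of 30-35 d was left out.

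In 3 more of the genes with many counts, 1 library of 30-35 d stood well below the others. MELO3C011553.2 had 805.7, 189.8 and 821.7 CPM at 30-35 d, against 15.83, 51.94 and 39.18 CPM at 20-25 d, a log2 change of 4.09 with SE 0.61 (edgeR adjusted p = 0.00529). MELO3C024603.2 had 1311, 284.7 and 829.7 CPM at 30-35 d, against 117.2, 137.7 and 105.4 CPM at 20-25 d, a log2 change of 2.77 with SE 0.57 (edgeR adjusted p = 0.0363). In both genes the low library was replicate 2 of 30-35 d, which still lay above all of 20-25 d. When replicate 1 of 30-35 d was left out, the log2 value of MELO3C024603.2 was 1.96 and its edgeR adjusted p was 0.234. MELO3C011018.2 had 1165, 1142 and 457.6 CPM at 30-35 d, against 87.15, 107.5 and 203.8 CPM at 20-25 d, a log2 change of 2.86 with SE 0.49 (edgeR adjusted p = 0.0141). Its low library was replicate 3. The call was kept in 5 of 6 fits without 1 library for MELO3C011553.2, in 2 of 6 for MELO3C024603.2 and in 3 of 6 for MELO3C011018.2.

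Genes with fewer counts rose as well. MELO3C006694.2 had 236.4, 88.8 and 57.15 CPM at 30-35 d, against 16.83, 14.02 and 18.62 CPM at 20-25 d, a log2 change of 3.03 with SE 0.59 (edgeR adjusted p = 0.0294) that was 2.01 and no longer passed without replicate 1 of 30-35 d. MELO3C019923.2 had 20.27, 72.33 and 58.39 CPM at 30-35 d, against 5.943, 4.546 and 5.923 CPM at 20-25 d, a log2 change of 3.12 with SE 0.56 (edgeR adjusted p = 0.0172). MELO3C007658.2 had 34.87, 19.75 and 4.856 CPM at 30-35 d, against 2.65, 2.031 and 1.777 CPM at 20-25 d, a log2 change of 3.28 with SE 0.57 (edgeR adjusted p = 0.0151). When replicate 1 of 30-35 d was left out, the value of MELO3C007658.2 was 2.44 and its edgeR adjusted p was 0.0798. The earlier libraries of all 3 genes were tightly grouped and the later ones spread several-fold. MELO3C012184.2 had 22.71, 15.89 and 15.81 CPM at 30-35 d, against 2.363, 2.708 and 0.3385 CPM at 20-25 d, a log2 change of 3.33 with SE 0.68 (edgeR adjusted p = 0.0339). MELO3C015277.2 had 2.352, 4.251 and 1.807 CPM at 30-35 d, against 0.07161, 0.4836 and 0.3385 CPM at 20-25 d, a log2 change of 3.28 with SE 0.62 (edgeR adjusted p = 0.0294). In these last 2 genes the spread lay in the earlier libraries, where counts were few. MELO3C012184.2 had 33, 28 and 4 counts there and MELO3C015277.2 had 1, 5 and 4. Each of the 5 genes kept its call in 2 or 3 of the 6 fits without 1 library.

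**Figure D2:**
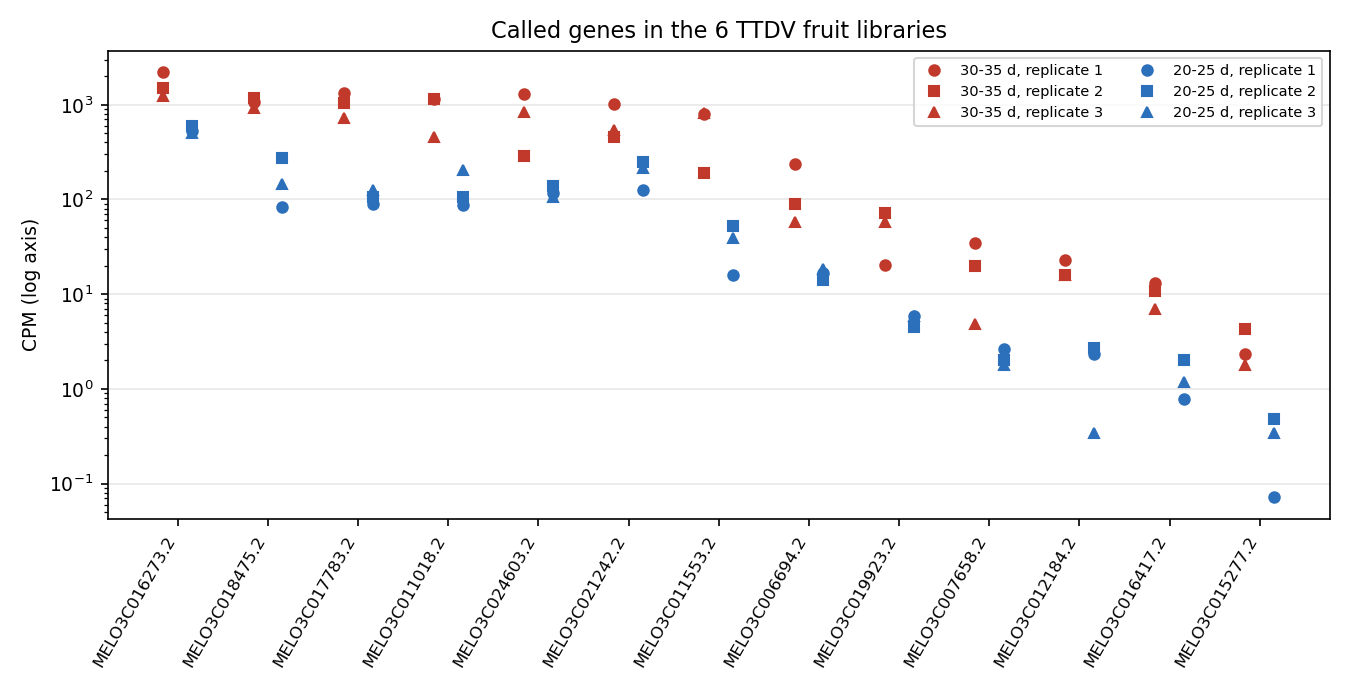
CPM on a log axis in each of the 6 TTDV libraries for 13 called genes, with 30-35 d (red) left of 20-25 d (blue) and a marker shape for each replicate. In all 13 genes every library of 30-35 d lies above every library of 20-25 d; in MELO3C011553.2 replicate 2 of 30-35 d, at 189.8 CPM, is the lowest of its group.

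Of the 43 genes, 4 had no count in the 3 libraries of 20-25 d. For these the fold is a lower bound against a floor of 3 counts over the group. MELO3C011903.2 had 13.3, 5.82 and 5.195 CPM at 30-35 d and was at least 98.7-fold higher, or at least 67.3-fold without replicate 1 of 30-35 d (adjusted p = 0.0339 by edgeR). MELO3C031662.2 had 4.054, 1.766 and 1.129 CPM and was at least 28.7-fold higher, or at least 18.4-fold without replicate 1 of 30-35 d (adjusted p = 0.0493 by edgeR). All 3 libraries of the later stage held reads of both genes. MELO3C002106.2 had 2.352, 1.242 and 3.727 CPM and was at least 26.7-fold higher, or at least 20.9-fold without replicate 3 of 30-35 d (adjusted p = 0.0469 by edgeR). MELO3C024695.2 had 0.4865, 1.7 and 0.7905 CPM and was at least 12.9-fold higher, or at least 7.39-fold without replicate 2 of 30-35 d (adjusted p = 0.0159 by edgeR). Counting all 25200 genes, 7 had 1 CPM or more in every library of 30-35 d and under 0.1 CPM in every library of 20-25 d (0.0278%), 3 of the 4 among them, and 1 gene showed the reverse (0.00397%). When replicate 3 of 30-35 d was left out the order turned, with 14 genes on at 30-35 d and 19 of the reverse kind. These levels are low, and the calls for the 4 genes were kept in 2, 1, 2 and 4 of the 6 fits without 1 library, in the order given.

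In 42 of the 43 genes every library of 30-35 d lay above every library of 20-25 d, a pattern that 1039 of all genes tested showed (6.87%), while 976 showed its reverse (6.45%). The 43 genes were called on these same libraries, so the pattern is largely built into their choice and is given as a description. The exception was MELO3C007638.2, singled out because of its values. It had 10.06, 10.72 and 6657 CPM at 30-35 d, against 5.084, 11.51 and 9.815 CPM at 20-25 d. Its log2 fold change of 7.70 (adjusted p = 0.0339 by edgeR) became 0.38 (adjusted p = 0.829) without replicate 3 of 30-35 d. The 30-35 d libraries were not equally high over the 43 genes. Replicate 1 was the highest of them in 27 genes, replicate 2 in 6 and replicate 3 in 10, and the highest library lay a median of 2.35 times above the lowest.

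No gene fell past the threshold (0%), although 725 of the 2044 genes at an unadjusted p under 0.05 were lower at 30-35 d, against 1319 higher (4.79% and 8.72% of those tested). The smallest adjusted p among lower genes was 0.0576 by edgeR. DESeq2 called 131 genes lower. MELO3C015421.2 had 97.06, 209.7 and 148.2 CPM at 30-35 d, against 982.3, 617.6 and 369.9 CPM at 20-25 d, a log2 change of -2.18 with SE 0.49 (edgeR adjusted p = 0.0576). MELO3C009765.2 had 16.38, 9.744 and 26.54 CPM at 30-35 d, against 119.2, 45.94 and 45.78 CPM at 20-25 d, a log2 change of -2.12 with SE 0.48 (edgeR adjusted p = 0.0576). The stages did not overlap in either gene, and neither passed. Without the library that stood apart, replicate 1 of 20-25 d, MELO3C009765.2 was at -1.44 and MELO3C015421.2 at -1.69. MELO3C013708.2 had 3.649, 12.56 and 8.809 CPM at 30-35 d, against 53.99, 27.18 and 38.84 CPM at 20-25 d, a log2 fold change of -2.34 (adjusted p = 0.0682 by edgeR). MELO3C021535.2 and MELO3C005390.2 were the other genes of smallest p without overlap, with log2 fold changes of -1.38 and -2.74 (adjusted p = 0.0611 and 0.0656 by edgeR). MELO3C005390.2 was at -2.00 without replicate 1 of 20-25 d.

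The 5 genes that took the most counts over the 6 libraries did not pass either. MELO3C006670.2 had 23970, 8372 and 1367 CPM at 30-35 d, against 27048, 14599 and 26246 CPM at 20-25 d, a log2 fold change of -0.89 (adjusted p = 0.651 by edgeR). Its later libraries differed from each other by more than the stages did. MELO3C007269.2 had 4567, 6606 and 1982 CPM at 30-35 d, against 23449, 10662 and 8445 CPM at 20-25 d, a log2 fold change of -1.69 (adjusted p = 0.259 by edgeR), with no overlap between the stages. MELO3C015995.2, MELO3C026550.2 and MELO3C023537.2 had log2 fold changes of -0.38, 0.07 and -0.69, and their stages overlapped. In 4 of the 5 genes replicate 3 of 30-35 d was the lowest of the 6 libraries, and the exception was MELO3C026550.2.

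The same interval in F39 fruit, measured in 6 other libraries, gives a comparison that shares no library with TTDV. F39 fruit at 30-35 d had 634 genes higher (4.19%) and 254 lower (1.68%) than at 20-25 d by edgeR. Of the 43 genes that rose in TTDV, 24 were called higher in F39 as well, which is 55.8% of the TTDV calls and 3.79% of the F39 calls in that direction, and 0 were called lower. In F39 40 of the 43 genes had a positive log2 fold change, with a median of 1.35, beside 49.1% positive and a median of 0.00 for all genes tested. In 32 of the 43 every F39 library of 30-35 d lay above every one of 20-25 d, against 8.15% of all genes tested. The F39 total of 888 calls (5.87%) ran from 68 to 2222 in fits without 1 library: it was 2222, 68 and 500 when replicate 1, 2 or 3 of 30-35 d was left out, and 255, 447 and 230 when replicate 1, 2 or 3 of 20-25 d was. With only the 2 F39 groups edgeR called 0, beside 2206 genes at an unadjusted p under 0.05 and 1804 called by DESeq2 on all groups.

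MELO3C017783.2 averaged 674.3 ± 86.3 CPM at 30-35 d and 187.1 ± 32.9 CPM at 20-25 d in F39 (SD, n = 3 each), or a log2 change of 1.97 (adjusted p = 0.00706 by edgeR), against 3.30 in TTDV. MELO3C024603.2 averaged 1114 ± 164 CPM at 30-35 d and 198.6 ± 86.9 CPM at 20-25 d in F39 (SD, n = 3 each), or a log2 change of 2.62 (adjusted p = 0.0116 by edgeR), against 2.77 in TTDV. MELO3C018475.2 and MELO3C016273.2 were also called in F39, with log2 fold changes of 1.90 and 1.35 (adjusted p = 0.0191 and 0.0232 by edgeR). MELO3C011018.2 was not: it averaged 523 ± 163 CPM at 30-35 d and 568.7 ± 193.7 CPM at 20-25 d in F39 (SD, n = 3 each), or a log2 change of 0.00 (adjusted p = 1 by edgeR).

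**Figure D3:**
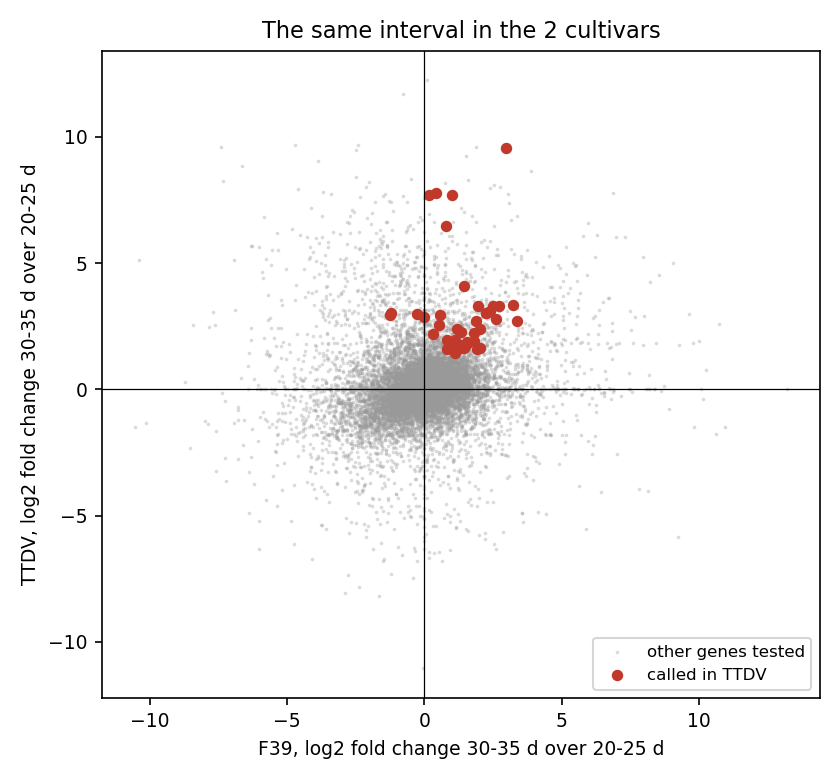
Log2 fold change from 20-25 to 30-35 d of each gene tested, in F39 on the horizontal and TTDV on the vertical axis; the 2 axes share no library. The 43 genes called in TTDV (red) are high on the TTDV axis by their choice, and 40 of them lie right of 0 on the F39 axis.

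Whether the change differed between the cultivars was tested as an interaction, the TTDV change minus the F39 change. No gene passed (0%) by edgeR, with 1821 genes at an unadjusted p under 0.05, while DESeq2 called 322, 150 with a larger and 172 with a smaller change in TTDV. Among the 43 genes 15 had an unadjusted interaction p under 0.05, beside 1821 of the 15130 genes tested. The median interaction of the 43 was 0.79 on the log2 scale, beside 0.07 for all genes tested. A larger TTDV value is built into this count and this median, because the 43 genes were called on the TTDV change. Without replicate 1 of F39 30-35 d edgeR called 533 genes, and without replicate 2 of TTDV 20-25 d or replicate 3 of TTDV 30-35 d it called 12 and 3. Without replicate 1 of TTDV 20-25 d it called 0, with 1573 genes at an unadjusted p under 0.05.

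The genes of smallest interaction p, taken among those whose TTDV stages did not overlap, mostly had fold changes of opposite sign in the cultivars. A choice by the difference between the 2 changes favours opposite signs, so this is a description. MELO3C016417.2 had 13.22, 10.86 and 7.002 CPM at 30-35 d and 0.7877, 2.031 and 1.185 CPM at 20-25 d in TTDV, a rise of 3.02 on the log2 scale (adjusted p = 0.0271 by edgeR), against 4.59 ± 2.60 CPM at 30-35 d and 11.5 ± 5.99 CPM at 20-25 d in F39 (SD, n = 3 each). MELO3C007054.2 had 20.27, 42.11 and 36.7 CPM at 30-35 d and 5.442, 2.902 and 3.892 CPM at 20-25 d in TTDV, a rise of 2.94 on the log2 scale (adjusted p = 0.0271 by edgeR), against 15.5 ± 16.3 CPM at 30-35 d and 38.6 ± 9.47 CPM at 20-25 d in F39 (SD, n = 3 each). Their F39 changes of -1.21 and -1.25 on the log2 scale were not called (adjusted p = 0.17 and 0.152 by edgeR). Their interactions of 4.23 and 4.19 had an adjusted p of 0.0686 by edgeR, as did those of MELO3C011114.2, MELO3C014271.2 and MELO3C007747.2, at -4.48, -2.68 and -3.19. These last 3 genes were called higher in F39 and were not called in TTDV. MELO3C014271.2 had 47.44, 91.09 and 106.3 CPM at 30-35 d and 163.7, 129 and 190.3 CPM at 20-25 d in TTDV, against 388.4 ± 262.2 CPM at 30-35 d and 134.0 ± 5.54 CPM at 20-25 d in F39 (SD, n = 3 each). MELO3C009342.2, MELO3C011018.2, MELO3C005390.2 and MELO3C002710.2 were also among the 5 of smallest p in each direction, with interactions of 6.49, 2.86, -4.25 and -2.27 and adjusted p values of 0.0794, 0.11, 0.0794 and 0.0794 by edgeR. The last was MELO3C004596.2 (adjusted p = 0.0898 by edgeR), which had 4.865, 5.624 and 0.2259 CPM at 30-35 d and no count at 20-25 d in TTDV, so that its interaction is given no value.

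The TTDV step was also set beside the F39 change from 20-25 to 40 d, on lists called in F39 and without shared libraries. F39 had 1692 genes higher (11.2%) and 2262 lower (15%) at 40 d by edgeR. Of the 1692 genes, 26 (1.54%) were called higher in TTDV between 20-25 and 30-35 d, beside 0.284% of all genes tested, and 0 were called lower; 1168 (69%) had a positive log2 fold change in TTDV, with a median of 0.29. Of the 2262 genes, 1 was called higher and 0 lower in TTDV, and 666 (29.4%) had a positive log2 fold change, with a median of -0.33. Over all genes tested 51.2% were positive and the median was 0.02. The F39 medians of the same lists, 1.77 and -2.60, come from the change the lists were called on and from a longer interval, so only their signs are set beside the TTDV medians. Without replicate 1 of TTDV 20-25 d the TTDV medians were 0.20 and -0.29. The medians of the 3 libraries of 30-35 d, on log2(CPM + 1) against the mean of 20-25 d, were 0.00, 0.12 and 0.46 for the first list, and -0.54, -0.28 and -0.29 for the second, beside -0.25, -0.08 and 0.18 for all genes tested in replicates 1, 2 and 3.

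**Figure D4:**
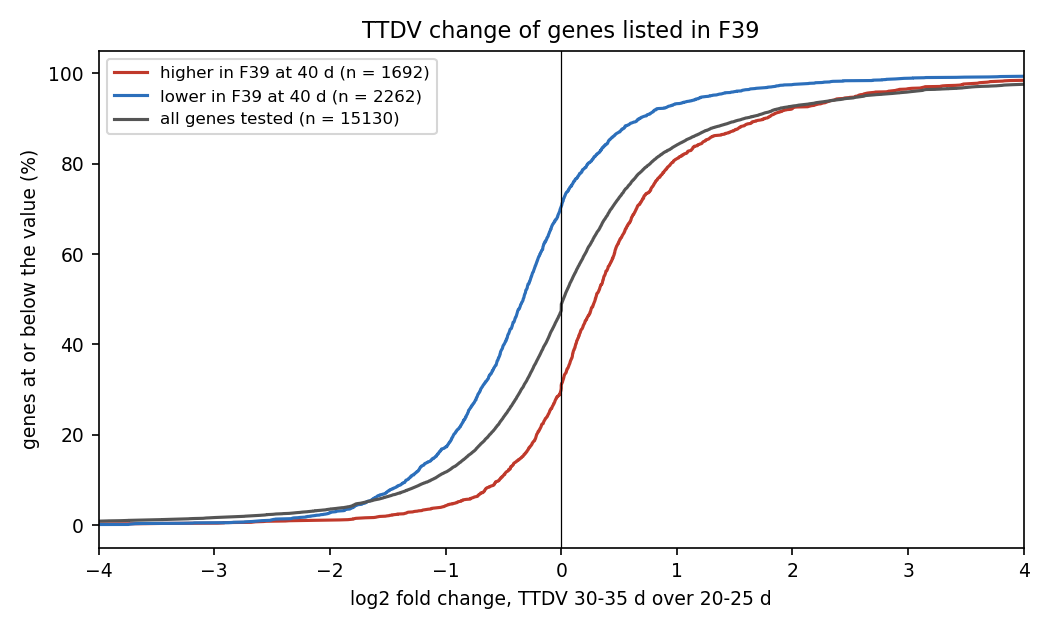
Percent of genes at or below each log2 fold change, TTDV 30-35 d over 20-25 d, for genes higher in F39 fruit at 40 d than at 20-25 d (red), lower there (blue) and all genes tested (grey). The red curve crosses 0 with 69% of its genes above it and the blue curve with 29.4%; values beyond 4 in either direction are outside the axis.

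A single value per library gave the same order. On a line through 10195 genes with 0 at the mean of F39 fruit at 20-25 d and 1 at that of F39 fruit at 40 d, the 30-35 d libraries lay at 0.134, 0.063 and 0.087 and the 20-25 d libraries at -0.014, -0.052 and 0.016. The difference of 0.111 between the stage means (30-35 d, 0.095 ± 0.036, and 20-25 d, -0.017 ± 0.034, SD, n = 3 each) had p = 0.1 by an exact two-sided permutation test, which is the smallest p that 3 against 3 allows. The stages did not overlap on this line, and both lay near the start of it. Without replicate 1 of 20-25 d the difference was 0.113.

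The F39 lists called at 30-35 d gave larger shares. Of the 634 genes higher in F39 at 30-35 d, 484 (76.3%) had a positive TTDV log2 fold change, with a median of 0.47, and in 167 of them (26.3%) the TTDV stages did not overlap in that direction, beside 6.87% of all genes tested. Of the 254 genes lower in F39, 31 (12.2%) had a positive TTDV log2 fold change, with a median of -0.70, and in 79 (31.1%) every TTDV library of 30-35 d lay below every one of 20-25 d, beside 6.45% of all genes tested. None of these 254 genes was called in TTDV (0 higher, 0 lower), beside 0.284% higher and 0% lower of all genes tested. At an unadjusted p under 0.05, 60 of them (23.6%) were lower, beside 4.79% of all genes tested. These lists were called over the same interval in F39.

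At the next stages the 43 genes took different courses. TTDV 40 d by number are the files numbered 16 to 18, and this level is compared with the 30-35 d libraries on which the genes were chosen as high, so a lower level at 40 d is in part built into the choice. In 16 genes (37.2%) the 40 d mean was under 50% of the 30-35 d mean, in 25 it lay between that and 2 times, and in 2 it was more than 2 times higher, beside 27.7%, 54.7% and 17.6% of the 12606 genes tested with a mean of 1 CPM or more at 30-35 d. MELO3C011553.2 stood at 56.4 ± 14.2 CPM at 40 d, 9.31% of its 30-35 d mean, and at 61.8 ± 33.9 CPM at 45 d (SD, n = 3 each). MELO3C024603.2 stood at 113.7 ± 37.8 CPM at 40 d, 14.1% of its 30-35 d mean, and at 46.6 ± 7.21 CPM at 45 d (SD, n = 3 each). Their 20-25 d means were 35.65 and 120.1 CPM. MELO3C015277.2 lay the other way, with 43.0 ± 4.98 CPM at 40 d and 42.2 ± 16.1 CPM at 45 d (SD, n = 3 each), 1533% of its 30-35 d mean at 40 d. MELO3C007658.2 was the other gene above 2 times, at 380% of its 30-35 d mean.

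In F39, whose change was not the one called, though its libraries entered the filter and the pooled spread of the fit, 30-35 d was the stage of highest mean in 15 of the 43 genes (34.9%), beside 17.4% of those 12606 genes. The F39 40 d mean was under 50% of the F39 30-35 d mean in 6 of the 43 (14%). That is less than the 22.4% of those 12606 genes. Of the 6 genes, 5 were among the 16 that stood under 50% in TTDV. MELO3C024603.2 and MELO3C011553.2 were among the 5. MELO3C024603.2 had means of 198.6, 1114, 355.6 and 49.98 CPM in F39 fruit at 20-25, 30-35, 40 and 45 d. MELO3C011553.2 had F39 means of 116.7, 294.2, 140.5 and 55.44 CPM at those stages. In both genes the 30-35 d mean was the highest of the 4 in each cultivar.

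**Figure D5:**
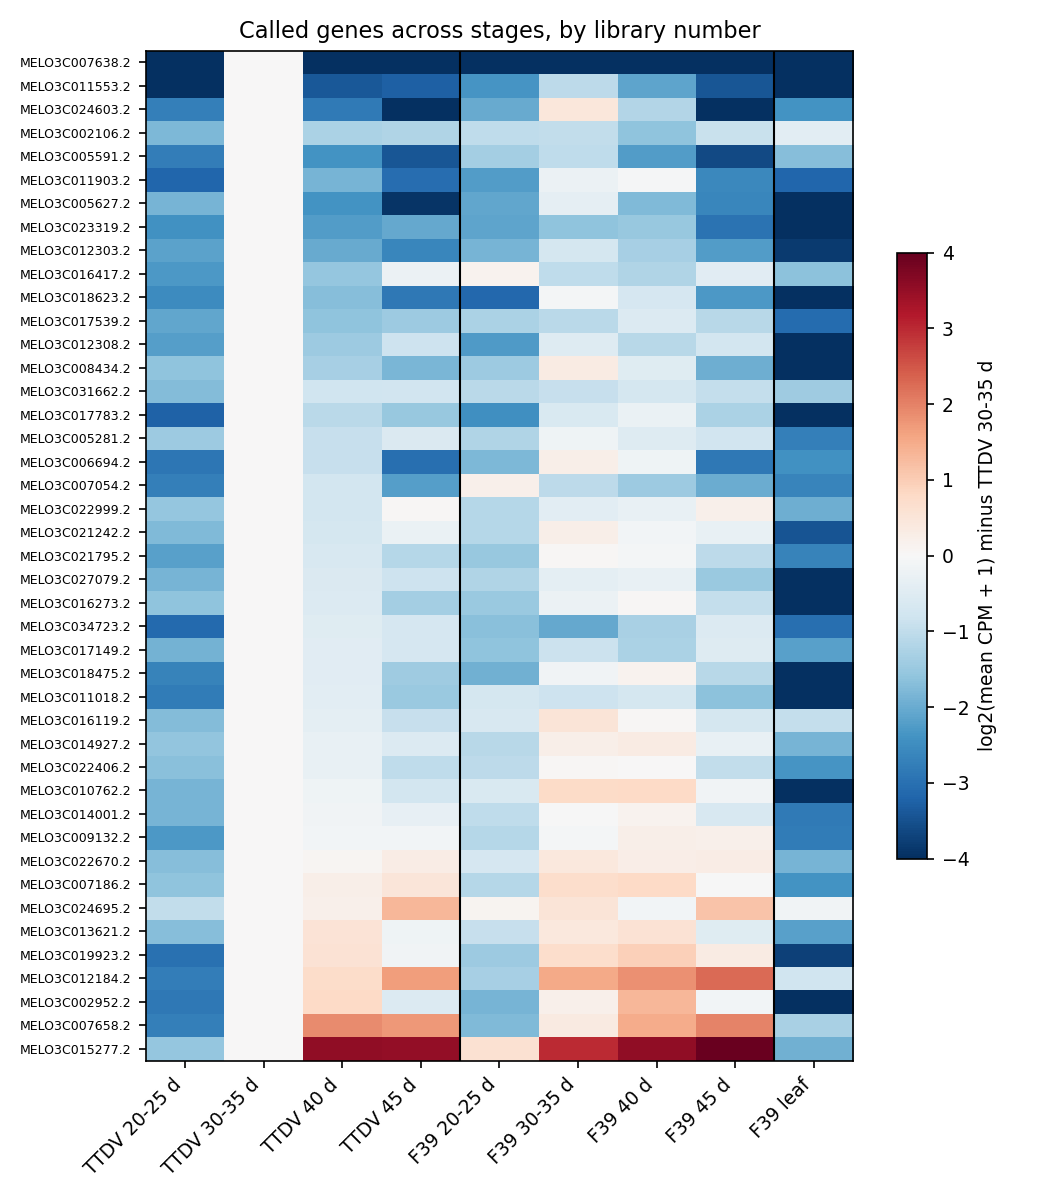
Mean level of the 43 called genes in each group, as log2(mean CPM + 1) minus the value of TTDV 30-35 d, with groups matched by library number and genes ordered by the ratio of TTDV 40 d to 30-35 d. TTDV 20-25 d is below 0 throughout by the choice of genes; at 40 d values run from far below 0 (MELO3C007638.2, MELO3C011553.2) to above 2 (MELO3C015277.2), and leaf is below 0 in all 43.

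Leaf served as a view of the genes outside fruit. The leaf mean was below the TTDV 20-25 d mean in 30 of the 43 genes (69.8%), beside 72.2% of the 12606 genes, so the share was near the background. None of the 43 had a leaf mean above its TTDV 30-35 d mean (0 of 43), which is in part built into their choice as high at that stage. Most were detected in leaf: 38 had a leaf mean of 1 CPM or more (88.4%, beside 88.3%) and 2 a mean under 0.1 CPM. MELO3C011903.2 and MELO3C015277.2 had no count in the 3 leaf libraries.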

How the data were processed

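Each deposited file holds, from the authors, raw whole-number counts of 1 library over genes, without normalization. The submitters' processing notes name STAR 2.5.4b and edgeR 3.12.1 without role or order. Which program counted reads, the build, the annotation and the strand setting are not given here, so values of overlapping or near-identical genes are uncertain. RNA came from powdered frozen tissue and libraries from a NuGen mRNA kit, per the labels' protocols. No 2 of the 27 files were identical (0 pairs).

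In R 4.3.3, edgeR 4.0.16 kept 15130 genes (filterByExpr), scaled libraries by TMM and fitted 1 model with 9 group means to all 27 libraries; tests were robust quasi-likelihood F-tests with Benjamini-Hochberg adjustment at 0.05. Alternatives were DESeq2 1.42.0, median-of-ratios scaling, other filters, fewer groups and leaving out each library; DESeq2 without replicate 1 of TTDV 20-25 d was chosen after seeing the data. The procedure was tested on simulated data. Named genes passed with stages that did not overlap: the 12 largest changes and the 6 with most counts. Added to these were the 5 of smallest p without overlap in a direction with under 5 calls, the 5 with most counts of all, and the 5 of smallest interaction p in each direction without overlap between the TTDV stages. The members and lists were chosen with earlier results of these data known. Lists by product name could not be applied. The floor of 3 counts covers counting error only, because PCR copies without molecular identifiers are no independent molecules. Plots used matplotlib 3.10.9 and tables pandas 2.3.3, numpy 2.4.6 and scipy 1.17.1 in Python 3.11.15.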

Additional observations from a re-analysis of the deposited data

How the results depend on the processing

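The 43 TTDV calls became 33 with median-of-ratios scaling, 38 without the filter on low counts, 40 with a stricter filter (a mean of 5 CPM, with 1 CPM reached in 3 or more libraries) and 29 with only the fruit libraries (4 and 1 of the last 2 counts being lower at 30-35 d), all within 1.5 times. They became 504 with DESeq2, 174 with DESeq2 without replicate 1 of 20-25 d, 0 with only the groups compared, 1 to 141 without 1 library, and 3968 (1898 higher, 2070 lower) with the groups as GEO attaches the files, where other files are compared. The 888 F39 calls at 30-35 d became 1804 with DESeq2, 0 with only the groups compared, and 68 to 2222 without 1 library. The interaction gave 322 genes with DESeq2 and 0 to 533 without 1 library. The 3954 F39 calls at 40 d became 2594 to 2976 without 1 library, the lowest without replicate 2 of 40 d. The cause of these differences was not tested. The 7 genes on at 30-35 d and off at 20-25 d became 20 and 2 with the minimum at 0.5 and 2 CPM, and 9 to 28 without 1 library; the 1 gene of the reverse kind became 9 and 0, and 1 to 19 (19 against 14 without replicate 3 of 30-35 d). The position difference stayed between 0.092 and 0.128 under its alternatives, and the list medians between 0.20 and 0.35 and between -0.47 and -0.29. Of the 35 named genes 2 changed sign in a fit without 1 library, neither having passed the test: MELO3C015995.2 ran from -0.81 to 0.05 without 1 library (0.05 without replicate 3 of 30-35 d), and MELO3C026550.2 from -0.29 to 0.25 (-0.26 and -0.29 with replicate 2 of 20-25 d or replicate 1 of 30-35 d left out). No paired analysis was possible because the labels give no pairing of libraries between the stages. The titles only give every library a number of its own. Depth limits the genes of a few CPM, which rest on few reads.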

Other observations

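Among the 7 genes on at 30-35 d and off at 20-25 d, MELO3C018117.2 had 1.135, 13.47 and 102.8 CPM at 30-35 d, against 0, 0.09672 and 0 CPM at 20-25 d. MELO3C002377.2 had 3.892, 7.978 and 31.17 CPM at 30-35 d, against 0, 0 and 0.08461 CPM at 20-25 d. Replicate 3 of 30-35 d was the highest library in both genes. The gene of the reverse kind, MELO3C019989.2, had no count at 30-35 d, against 1.074, 3.095 and 1.523 CPM at 20-25 d. These 3 genes were picked with their values in view.

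Some genes were high in a single library of a stage. At 30-35 d, 11 genes had at least 100 CPM in replicate 3 and at least 50 times the middle library plus 0.1 CPM, with 2 such genes in replicate 2 and 0 in replicate 1. At 20-25 d, 13 genes did so in replicate 2 and 0 in the others. All 13 of these were also highest, among the 30-35 d libraries, in replicate 3, and in 9 of them replicate 3 was at least 10 times as high as either other library. MELO3C007862.2 had 11.27, 13.93 and 338.6 CPM at 30-35 d, against 3.724, 476.2 and 0.5923 CPM at 20-25 d. MELO3C005858.2 had 15.41, 4.251 and 259.3 CPM at 30-35 d, against 4.01, 441.2 and 1.523 CPM at 20-25 d. The same 2 libraries, 1 of each stage, were thus high in both genes, which were picked with their values in view. Over the 10472 genes used for correlations, replicate 3 of 30-35 d had Spearman correlations of 0.819 and 0.844 with the other libraries of its own stage. With a library of 20-25 d its correlation was up to 0.887, the median over the 3 libraries being 0.823.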
